A study of Homo sapiens with 6 samples.

Results

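The 10 genes described here are core genes of the circadian clock, chosen by name: CLOCK, ARNTL, PER1, PER2, PER3, CRY1, CRY2, NR1D2, DBP and BHLHE40. ARNTL is the annotation's symbol for the gene now called BMAL1. All 10 were found by Ensembl identifier among the 58721 genes of the count table, and all 10 passed the filter on low counts that left 20713 genes for testing. The cells were A549, an established line from a human lung adenocarcinoma. By the sample titles they overexpressed the R98W form of the histone acetyltransferase KAT8 in 3 libraries and wild-type KAT8 (WT) in the other 3 libraries. All 6 libraries are polyadenylated RNA of the same line in serum-containing medium, and all are titled as overexpressing KAT8 in either form. The KAT8 level of WT replicate 1 goes against its title, as given below. The sources used here do not give the vector, its promoter, the number of clones or the hour of harvest, so each library is a level at a single unstated time, and neither phase nor amplitude of a rhythm was measured.

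The clock of mammalian cells is a transcriptional feedback loop. CLOCK and ARNTL form a heterodimer that binds E-boxes and switches on the PER and CRY genes, whose proteins return to the nucleus and block the heterodimer. A second set of factors adjusts the loop: the REV-ERB receptors (NR1D1, NR1D2) repress and the ROR receptors activate ARNTL through shared response elements, DBP and its relatives activate through D-boxes against the repressor NFIL3, and BHLHE40 and BHLHE41 compete for E-boxes. The loop runs in most tissues, the lung among them, and in cultured cells it drifts out of step between cells unless it is set by serum, glucocorticoid or cAMP.

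Libraries held 90007121 to 110152936 counts. KAT8 itself reached 166, 196 and 236 CPM (counts per 1000000 of the TMM-scaled library total) in R98W replicates 1 to 3, against 12.2, 195 and 184 CPM in WT replicates 1 to 3. The library labelled WT replicate 1 therefore goes against its label in the level of the overexpressed gene, and results on the clock genes are given with and without it. Reads of mitochondrial ribosomal RNA were 1.47% to 1.57% of counts in R98W libraries and 0.905% to 1.04% in WT libraries, and the part of this difference in the clock gene values was not tested. The 6 epithelial markers summed to 7979 to 8603 CPM in R98W and 8587 to 8776 CPM in WT libraries. The 3 endothelial markers summed to 0.214 to 0.362 CPM in R98W and 0.392 to 0.779 CPM in WT. The 4 fibroblast markers summed to 11.7 to 12.8 CPM in R98W and 10.1 to 14.2 CPM in WT, almost all of it COL1A1, with COL1A2 and DCN at or near 0. The 4 blood markers summed to 6.06 to 8.88 CPM in R98W and 7.30 to 8.34 CPM in WT, almost all of it CD14, with PTPRC and CD3E at or near 0. In RNA from whole cultures a change in the share of cells that express a gene and a change in RNA per cell cannot be told apart. Of the epithelial markers EPCAM was lower in R98W, at 3.30 to 4.71 CPM against 6.12 to 8.29 CPM in WT (edgeR adjusted p = 0.000151), KRT19 was higher, at 51.3 to 56.7 CPM against 38.0 to 41.2 CPM in WT (edgeR adjusted p = 3.53e-05), and KRT7, KRT8, KRT18 and CDH1 did not pass the test.

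The sequences below show the clock elements found by letter match near the RefSeq starts of the 5 genes that rose in R98W (ARNTL, PER1, PER2, PER3 and CRY1), and of 2 genes with E-boxes that did not pass the test (NR1D2 and BHLHE40). Capitals mark the matched element, and each run reads 5′ to 3′ on the strand of the gene in GRCh38.p14. Where the element lies in an annotated exon only a short stretch is shown.
PER1, chr17:8152536-8152613, minus strand, E-box: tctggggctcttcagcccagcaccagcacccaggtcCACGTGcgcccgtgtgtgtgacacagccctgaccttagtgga
PER2, chr2:238288766-238288843, minus strand, E′-box: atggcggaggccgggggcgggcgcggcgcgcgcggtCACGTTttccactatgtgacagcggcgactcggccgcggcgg
PER2, chr2:238288595-238288624, minus strand, D-box: cccgctgcggcTTACGTAAccgccgccggc
PER3, chr1:7784078-7784157, plus strand, D-box: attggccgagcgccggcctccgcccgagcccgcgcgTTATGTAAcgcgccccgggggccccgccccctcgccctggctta
CRY1, chr12:107093621-107093650, minus strand, E′-box on the other strand: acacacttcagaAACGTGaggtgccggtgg
ARNTL, chr11:13277809-13277837, plus strand, core of the ROR and REV-ERB element: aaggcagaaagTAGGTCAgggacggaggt
NR1D2, chr3:23945891-23946057, plus strand, a D-box and a pair of E-boxes: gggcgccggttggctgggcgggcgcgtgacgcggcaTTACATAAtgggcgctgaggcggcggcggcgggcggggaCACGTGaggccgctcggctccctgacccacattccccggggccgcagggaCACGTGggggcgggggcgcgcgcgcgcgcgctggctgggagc
BHLHE40, chr3:4979187-4979209, plus strand, E-box: tccaaCACGTGagactcatgtga

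The search covered 250 bases before and 50 after each RefSeq start, reading both strands, in 15 windows of the 10 genes. The E-box CACGTG is in 7.26% of all 35116 windows of the table, the E′-box CACGTT in 5.34%, the D-boxes TTATGTAA and TTACGTAA together in 1.01%, and the core TAGGTCA in 1.85%. No match overlapped another. E-boxes were found for PER1, NR1D2 and BHLHE40, E′-boxes for CLOCK, PER2, CRY1 and CRY2, D-boxes for PER2, PER3 and NR1D2, and the core for ARNTL and CRY2. The windows of DBP held none of these letters, and the cAMP element TGACGTCA, which 1.85% of all windows hold, was in no window of the 10 genes. Genes that rose and genes that did not pass the test both carried E-boxes, E′-boxes and D-boxes. A match is a description of the letters and does not show binding.

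Per kilobase of exon, BHLHE40 was by far the most abundant clock transcript, at 43.4 ± 1.2 CPM per kb in R98W and 44.5 ± 2.0 in WT (SD, n = 3). NR1D2 followed at 7.65 ± 0.93 in R98W and 7.27 ± 0.91 in WT. A middle group of CRY1, CLOCK, PER2 and ARNTL lay between 4.13 and 5.75 CPM per kb in R98W and between 3.36 and 4.81 in WT. In WT libraries CRY1 and CLOCK (4.81 ± 0.04 and 4.78 ± 0.43) did not differ beyond their spread, nor did PER2 and ARNTL (3.37 ± 0.36 and 3.36 ± 0.15). PER1, CRY2, DBP and PER3 formed the low end, at 0.885 to 1.26 CPM per kb in R98W and 0.679 to 1.12 in WT. PER1 stood above CRY2 in R98W, at 1.26 ± 0.06 against 1.04 ± 0.03, and the spreads of the pair overlapped in WT, at 1.01 ± 0.13 and 1.12 ± 0.02. Per kilobase of the longest annotated transcript ARNTL came before CLOCK and PER2, at 7.19 in R98W and 5.85 in WT, and the other 7 genes kept their places in both groups.

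Of the 10 clock genes 5 were higher in R98W and 0 lower by edgeR at an adjusted p under 0.05, against 34.8% of all tested genes called, 16.2% higher and 18.5% lower. At an unadjusted p under 0.05 the counts were also 5 and 0, and DESeq2 and limma-voom each called 5 higher and 0 lower. The genes that rose were 4 of the 5 PER and CRY repressors and the activator ARNTL. Their rises were small, from 0.26 to 0.43 on the log2 scale. The median log2 fold change was 0.19 over the 10 genes and -0.0047 over all tested genes. R98W and WT libraries did not overlap in 6 of the 10 genes, CRY2 being the sixth, and in 45.6% of all tested genes. Without the library labelled WT replicate 1 the counts were again 5 higher and 0 lower, and the adjusted p of the other 5 genes ran from 0.186 for CLOCK to 0.943 for BHLHE40. The count of higher genes fell to 3 without WT replicate 2 and to 3 without R98W replicate 3. Whether the replicates were separate cultures is not stated in the labels, and the spread that the p-values rest on may be technical.

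**Figure D1:**
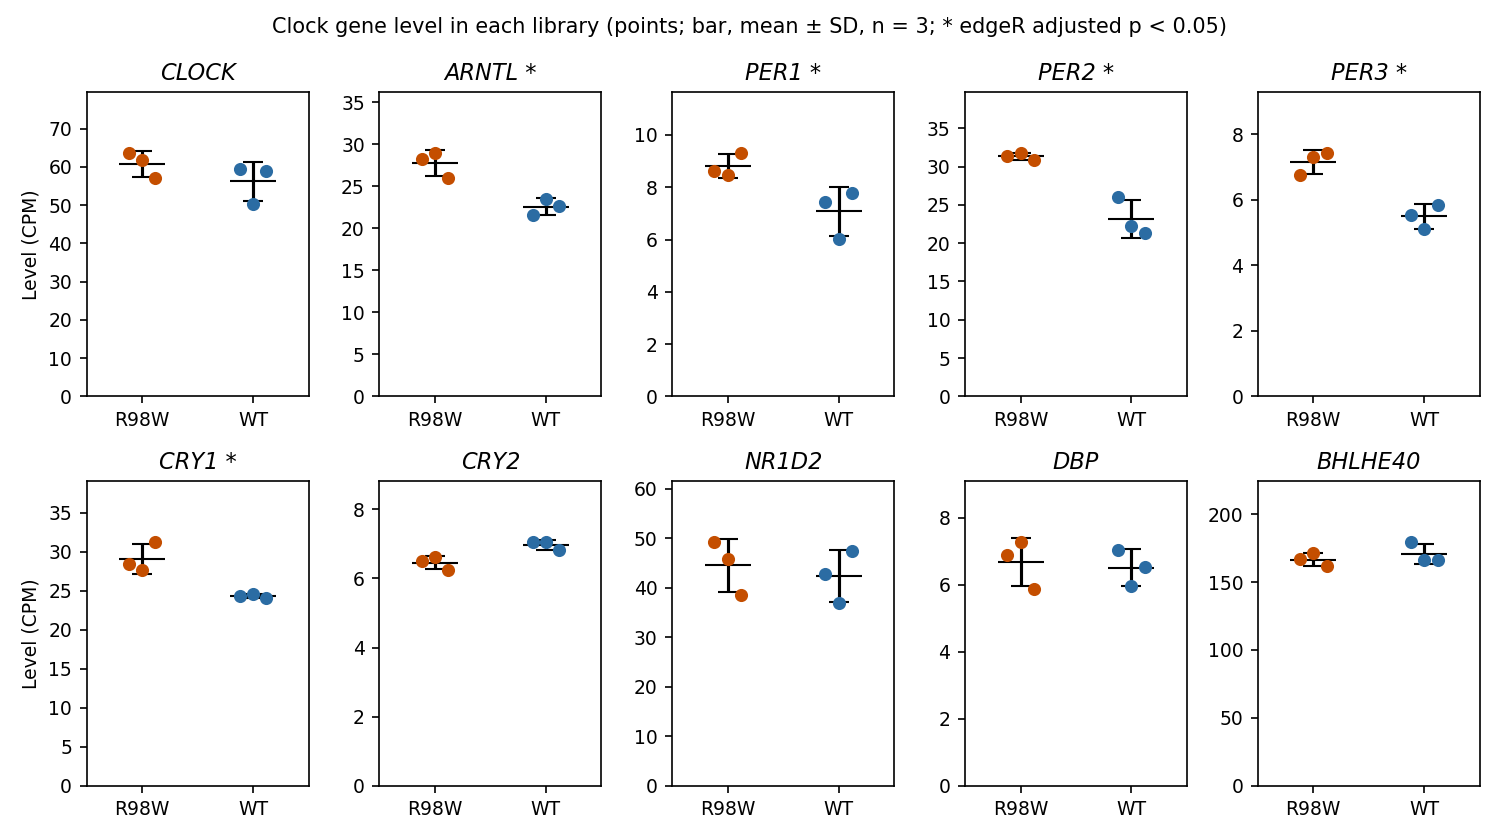
Level of each clock gene in CPM (vertical axes, from 0) in the 3 R98W libraries (left) and the 3 WT libraries (right) of each panel, with mean ± SD as bars and a star where the edgeR adjusted p was under 0.05. ARNTL, PER1, PER2, PER3 and CRY1 lie higher in every R98W library than in any WT library, whereas CLOCK, NR1D2, DBP and BHLHE40 overlap.

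Of the activator pair, ARNTL rose and CLOCK did not pass the test. ARNTL (ENSG00000133794, chromosome 11, 13276652 to 13387266, hg38), the partner that gives the heterodimer its rhythm, stood at 28.3, 29.0 and 26.0 CPM in R98W replicates 1 to 3, against 21.5, 23.5 and 22.7 CPM in WT replicates 1 to 3. All R98W libraries lay above all WT libraries. ARNTL rose by 0.30 ± 0.08 (SE) on the log2 scale, with an edgeR adjusted p of 0.00601, and by 0.25 without the library labelled WT replicate 1 (edgeR adjusted p = 0.0259). CLOCK (ENSG00000134852, chromosome 4, 55427903 to 55547138), the larger partner, stood at 63.7, 61.8 and 57.1 CPM in R98W libraries, against 59.4, 50.4 and 58.9 CPM in WT libraries. The groups overlapped, WT replicate 2 being the low library. The log2 fold change of CLOCK was 0.11, with a 95% interval of -0.04 to 0.27 (edgeR adjusted p = 0.261). It was 0.03 without WT replicate 2 and 0.16 without R98W replicate 3. CLOCK shares 76 exon bases with TMEM165 on the other strand, which rose by 0.32 on the log2 scale (edgeR adjusted p = 0.00107), and no source used here gives the strand setting of the counting.

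PER2 showed the clearest change of the 10 genes. PER2 (ENSG00000132326, chromosome 2, 238244038 to 238290102) encodes the period protein that carries the cryptochromes to the heterodimer. It was at 31.3, 31.8 and 30.9 CPM in R98W replicates 1 to 3, against 26.0, 22.2 and 21.3 CPM in WT replicates 1 to 3. The R98W libraries were close together, and WT replicate 1 was the highest of the WT libraries. PER2 rose by 0.43 on the log2 scale (SE 0.08, edgeR adjusted p = 0.000428), or by 0.51 without the library labelled WT replicate 1 (edgeR adjusted p = 7.89e-05). PER2 was the only clock gene still called in the test against a fold of 1.2, at an adjusted p of 0.0485, and it was called in all 18 alternatives.

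The other period genes, which were expressed at lower levels, also rose. PER1 (ENSG00000179094, chromosome 17, 8140472 to 8156506), a period gene that responds early to cAMP and glucocorticoid, was at 8.63, 8.46 and 9.31 CPM in R98W libraries and 7.44, 6.03 and 7.79 CPM in WT libraries. PER3 (ENSG00000049246, chromosome 1, 7784320 to 7845177), the period gene least needed for the rhythm itself in mice, was at 6.75, 7.31 and 7.44 CPM in R98W libraries and 5.53, 5.11 and 5.86 CPM in WT libraries. In both genes the groups were apart, by a narrow gap for PER1. Log2 fold changes were 0.31 for PER1 (SE 0.12, edgeR adjusted p = 0.0413) and 0.38 for PER3 (SE 0.11, edgeR adjusted p = 0.0133). The PER1 call is the weakest of the 5: it was lost without WT replicate 2, where the log2 fold change was 0.20 (edgeR adjusted p = 0.21), and without R98W replicates 1, 2 or 3 (adjusted p = 0.0729, 0.0655 and 0.134). The PER3 call was lost without WT replicate 2, at an edgeR adjusted p of 0.053. Leaving out the library labelled WT replicate 1 kept both calls, with log2 fold changes of 0.34 and 0.38. Counts behind these values ran from 819 to 983 in R98W and 693 to 741 in WT libraries for PER1, and from 663 to 785 in R98W and 551 to 588 in WT libraries for PER3. PER4, the processed pseudogene of PER3, had 0 counts in all 6 libraries. PER3 shares 868 exon bases with UTS2 on the other strand, with a mean of 0.0126 CPM in R98W libraries and 0 counts in WT libraries.

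Of the cryptochrome genes, which encode the strongest repressors of the loop, CRY1 rose and CRY2 did not pass the test. CRY1 (ENSG00000008405, chromosome 12, 106991364 to 107093829) was at 28.4, 27.6 and 31.2 CPM in R98W replicates 1 to 3, against 24.3, 24.5 and 24.1 CPM in WT replicates 1 to 3. The WT libraries were almost level, and R98W replicate 3 was the highest. The log2 fold change of CRY1 was 0.26 (SE 0.08, edgeR adjusted p = 0.0126), and 0.25 without the library labelled WT replicate 1 (edgeR adjusted p = 0.0302). The call was lost without WT replicate 3 or R98W replicate 3, at adjusted p of 0.0597 and 0.0663, and under 1 version of the correction for expression level given below. CRY2 (ENSG00000121671, chromosome 11, 45847118 to 45883248) was at 6.50, 6.62 and 6.24 CPM in R98W libraries and 7.05, 7.04 and 6.82 CPM in WT libraries. Every R98W library lay below every WT library, yet the log2 fold change of -0.11 did not pass the test (95% interval -0.34 to 0.12, edgeR adjusted p = 0.47). Without re-centring, the correction for expression level given below brought it to 0.0016, with the sign turned.

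The genes of the side loops did not pass the test. NR1D2 (ENSG00000174738, chromosome 3, 23945260 to 23980618), the REV-ERB beta repressor, was at 49.2, 45.8 and 38.6 CPM in R98W libraries and 42.7, 36.8 and 47.4 CPM in WT libraries. The groups overlapped across their whole range, and the log2 fold change was 0.07 (95% interval -0.12 to 0.27, edgeR adjusted p = 0.591). DBP (ENSG00000105516, chromosome 19, 48630030 to 48637438), the D-box activator and a sensitive direct target of CLOCK and ARNTL, was at 6.87, 7.27 and 5.87 CPM in R98W libraries and 7.04, 5.96 and 6.54 CPM in WT libraries. Its log2 fold change was 0.04 (95% interval -0.22 to 0.29, edgeR adjusted p = 0.855). DBP shares 661 exon bases with SPHK2 on the other strand, with a mean of 10.3 CPM in R98W libraries and 11.1 in WT libraries. BHLHE40 (ENSG00000134107, chromosome 3, 4979116 to 4985323), an E-box repressor also induced by hypoxia, was at 167, 171 and 162 CPM in R98W libraries and 179, 166 and 166 CPM in WT libraries. The log2 fold change was -0.03 with a 95% interval of -0.17 to 0.10 (edgeR adjusted p = 0.724). BHLHE40 passed the threshold as lower in both versions of the correction for expression level, at -0.17 without re-centring (adjusted p = 0.0321) and -0.26 with it (adjusted p = 0.00272).

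**Figure D2:**
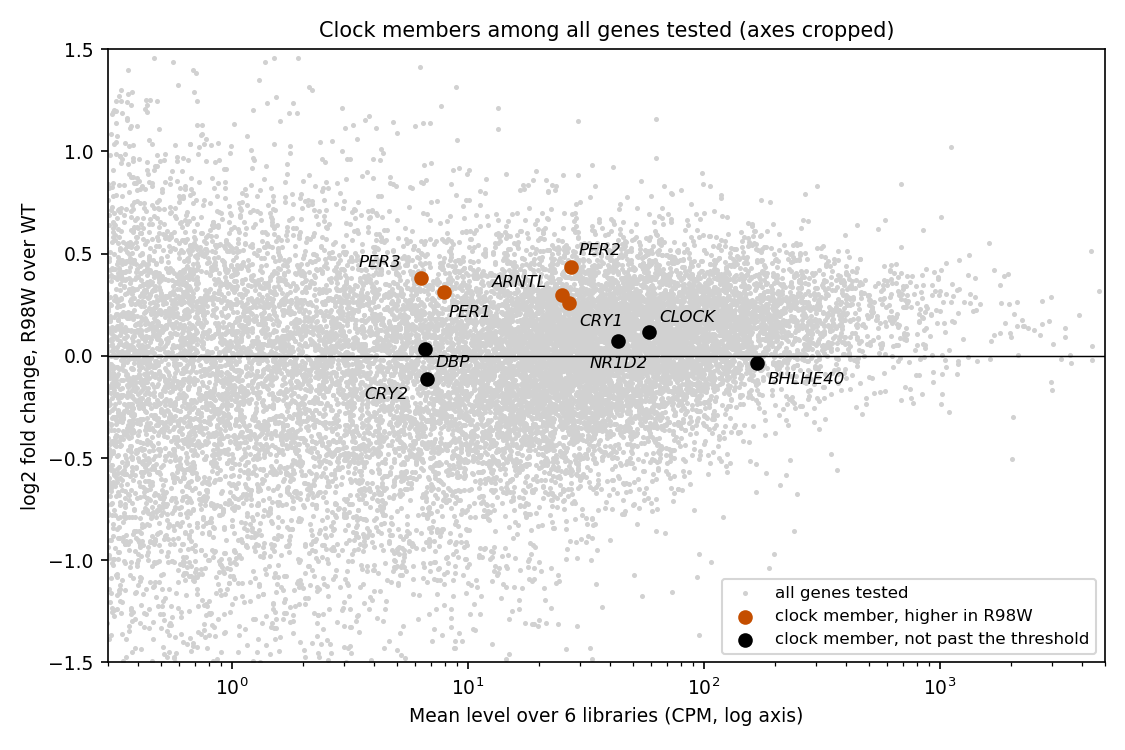
Log2 fold change of R98W over WT (vertical axis) against the mean level over 6 libraries in CPM (log axis) for all tested genes (grey) and the 10 clock genes (orange, higher in R98W; black, not past the threshold). The 5 clock genes that rose lie between 0.26 and 0.43, and BHLHE40 is the most abundant member, at -0.03.

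The level of a gene was related to its change over the whole transcriptome. Among tested genes of 1 to 10 CPM, where PER1, PER3, CRY2 and DBP lie, 10.4% were higher and 28.8% lower, with a median log2 fold change of -0.11. Among genes of 10 to 64 CPM, where ARNTL, PER2, CRY1, NR1D2 and CLOCK lie, 21.9% were higher and 24.0% lower, with a median of 0.0042. Of genes over 64 CPM, where BHLHE40 lies, 40.4% were higher and 9.41% lower, with a median of 0.13. A per-library correction for this relation was run in 2 versions. The version run first set the median of each library's fitted trend to 0, which left the median log2 fold change of all genes at -0.071. It gave 0.41 for PER3, 0.36 for PER2, 0.34 for PER1 and 0.23 for ARNTL, all past the threshold, whereas CRY1, at 0.19, lost its call (edgeR adjusted p = 0.0864). After these values had been seen, a version without re-centring was run, which left the median of all genes at 0.014. It gave 0.50 for PER3, 0.45 for PER2, 0.42 for PER1, 0.31 for ARNTL and 0.27 for CRY1, all past the threshold. Clock genes were thus 4 higher and 1 lower with re-centring and 5 higher and 1 lower without, and over all genes the counts were 1851 higher and 4714 lower with it and 3037 higher and 3578 lower without.

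Ratios between paralogs within a library do not depend on the scaling of that library. They can still carry the relation of change to level given above where the paralogs differ in level. In R98W libraries CRY2 averaged 6.45 CPM and CRY1 29.1 CPM, and BHLHE41 averaged 2.47 CPM and BHLHE40 167 CPM. The ratios were not corrected for that relation. The log2 ratio of CRY2 to CRY1 counts was -2.17 ± 0.14 in R98W and -1.80 ± 0.02 in WT (SD, n = 3), without overlap of the groups. ARNTL2, the ARNTL paralog that also pairs with CLOCK, had a log2 ratio of counts to ARNTL of -0.27 ± 0.15 in R98W and 0.37 ± 0.02 in WT, again without overlap. For BHLHE41 to BHLHE40 it was -6.09 ± 0.29 in R98W and -6.84 ± 0.27 in WT, also without overlap. For these 3 ratios the two-sided exact permutation test gave p = 0.1, the smallest that 3 against 3 libraries allow, and 0.2 after Benjamini-Hochberg adjustment over 6 ratios. Ratios of PER2 to PER1, PER3 to PER1 and NPAS2 to CLOCK overlapped between the groups, with exact p of 0.6, 0.5 and 0.7. The differences in these log2 ratios, R98W minus WT, were 0.12, 0.06 and -0.06. These differences varied when single libraries were left out. PER2 to PER1 was -0.01 without WT replicate 3, and NPAS2 to CLOCK was 0.03 without R98W replicate 1. PER3 to PER1 was 0.02 without R98W replicate 2 and 0.12 without WT replicate 2. With 5 libraries, WT replicate 1 left out, the differences became -0.36 for CRY2 to CRY1, -0.63 for ARNTL2 to ARNTL and 0.59 for BHLHE41 to BHLHE40, against -0.37, -0.64 and 0.75 with all libraries.

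**Figure D3:**
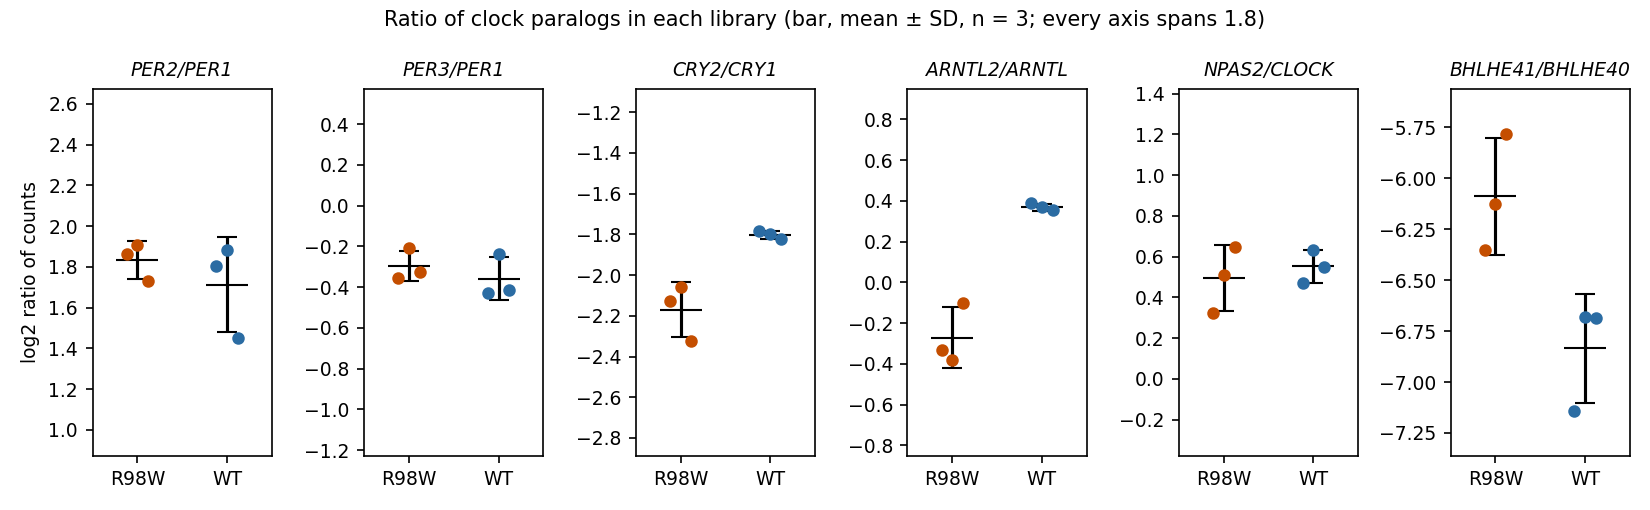
Log2 ratio of counts of 6 pairs of clock paralogs in each R98W library (left) and WT library (right), with mean ± SD as bars and the same span on every vertical axis. R98W lies below WT for CRY2 to CRY1 and ARNTL2 to ARNTL, above WT for BHLHE41 to BHLHE40, and overlaps WT in the other 3 pairs.

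The other listed clock factors, mostly transcription factors but with TIMELESS and CIART among them, moved in both directions. Of 12 listed, 11 were tested, and 2 were higher (18.2%) and 4 lower (36.4%) in R98W by edgeR, against 16.2% and 18.5% of all tested genes, with a median log2 fold change of 0.06. ARNTL2 fell to 23.0 ± 1.0 CPM in R98W, against 29.2 ± 1.1 CPM in WT, a log2 fold change of -0.34 (edgeR adjusted p = 0.00157). TIMELESS, which in mammals mainly serves the replication fork, fell to 100 ± 2.4 CPM in R98W, against 121 ± 5.0 CPM in WT. BHLHE41, the E-box repressor paralogous to BHLHE40, rose to 2.47 ± 0.45 CPM in R98W, against 1.498 ± 0.20 CPM in WT, a log2 fold change of 0.72 (edgeR adjusted p = 0.00492). BHLHE41 shares 162 exon bases with SSPN on the other strand, which had a log2 fold change of 0.71.

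NFIL3 and RORA, named after their values were seen, were also called. NFIL3, the D-box repressor, rose to 21.2 ± 0.78 CPM in R98W, against 17.0 ± 1.2 CPM in WT, a log2 fold change of 0.32 (edgeR adjusted p = 0.00542). RORA, a ROR receptor that activates ARNTL, fell to 1.05 ± 0.30 CPM in R98W, against 1.62 ± 0.30 CPM in WT, with overlapping groups. The RORA call (edgeR adjusted p = 0.0454) was lost without the library labelled WT replicate 1, at 0.106, and without WT replicate 3, R98W replicate 1 or R98W replicate 2, where adjusted p reached 0.212. It was also lost in both versions of the correction for expression level, at 0.115 without re-centring and 0.0724 with it, and held in 8 of 18 alternatives. NR1D1, the REV-ERB alpha repressor, averaged 15.6 ± 1.7 CPM in R98W and 14.9 ± 0.66 in WT libraries and did not pass the test (log2 fold change 0.06, edgeR adjusted p = 0.659). It shares 263 exon bases with THRA on the other strand, which fell by 0.35 on the log2 scale. NPAS2, the paralog of CLOCK, averaged 85.7 ± 5.2 CPM in R98W and 82.3 ± 4.1 in WT libraries (edgeR adjusted p = 0.548), and CIART, a repressor of the heterodimer, averaged 0.504 ± 0.093 CPM in R98W and 0.585 ± 0.156 in WT libraries (edgeR adjusted p = 0.635).

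**Figure D4:**
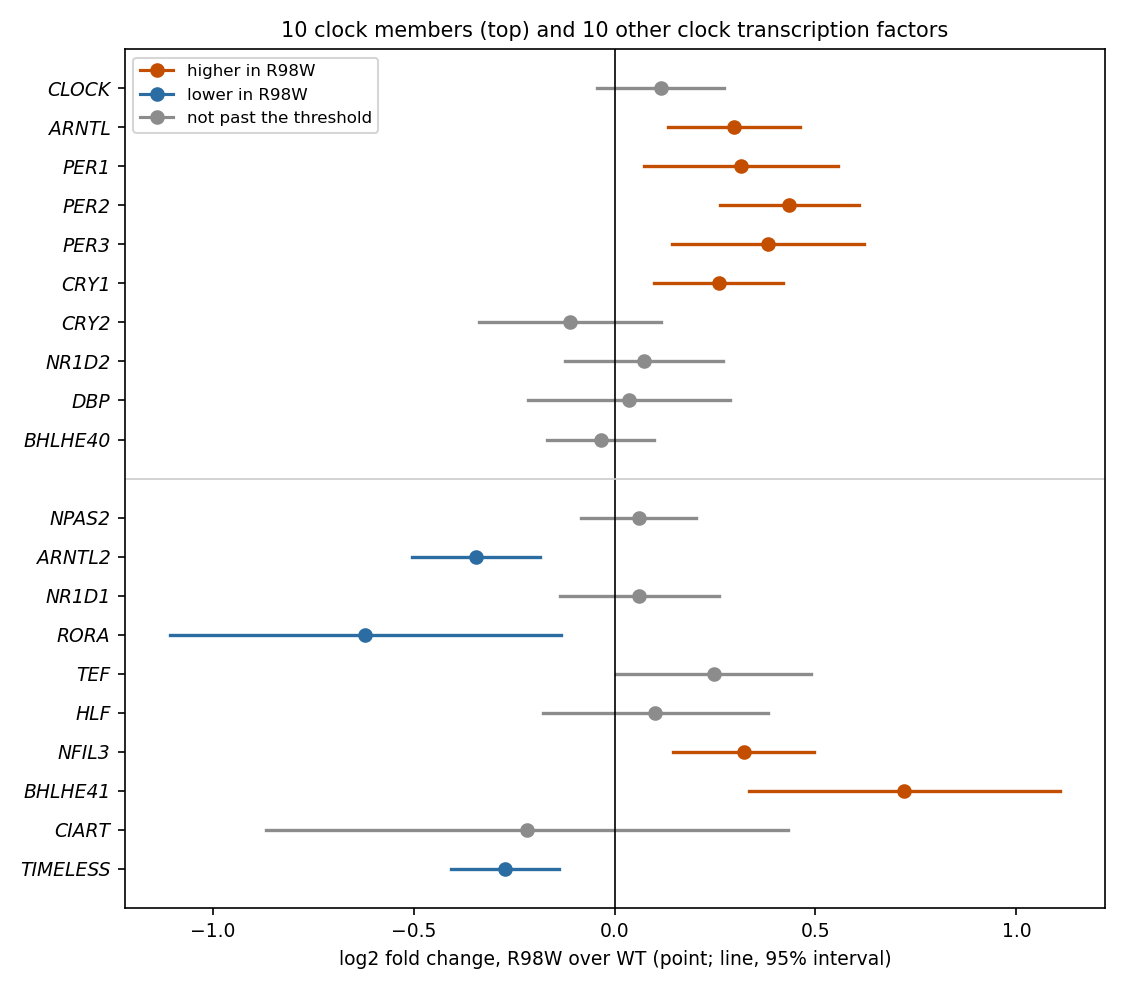
Log2 fold change of R98W over WT (points) with 95% intervals (lines) for the 10 clock genes (top) and 10 other clock factors, coloured by the edgeR call. PER2 has the highest value of the 10 clock genes at 0.43, and among the other factors drawn BHLHE41 lies at 0.72 and ARNTL2 at -0.34.

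A list of 24 genes, called enzymes below, joined clock kinases, phosphatases, ubiquitin ligases and deubiquitinases. It also held subunits, an adaptor and the pseudogene FBXL21P, and genes of opposing action were counted together. Of the 24, 11 were higher (45.8%) and 3 lower (12.5%) in R98W by edgeR, against 16.2% and 18.5% of all tested genes. However, 16 of the 24 exceeded 64 CPM, a level at which 40.4% of all genes were higher and 9.41% lower. The list's shares also count its genes under 64 CPM, so they are not a like comparison with that level. The list's median log2 fold change was 0.13, and after the correction for expression level 6 were higher and 3 lower without re-centring and 2 higher and 3 lower with it. SKP1, the adaptor of the ubiquitin ligases that degrade PER and CRY proteins, rose to 286 ± 8.0 CPM in R98W, against 221 ± 5.3 CPM in WT (log2 fold change 0.37, edgeR adjusted p = 0.000117). GSK3B and PRKAA1, kinases that phosphorylate several clock proteins, rose by 0.37 and 0.38 on the log2 scale. With the re-centred correction for expression level SKP1, GSK3B and PRKAA1 all lost their calls, at 0.13, 0.16 and 0.17 (edgeR adjusted p = 0.128, 0.0963 and 0.0723), and without re-centring they kept them, at 0.21, 0.24 and 0.25. BTRC, the F-box protein that recognises phosphorylated PER, fell to 30.2 ± 2.5 CPM in R98W, against 40.7 ± 1.7 CPM in WT (log2 fold change -0.43, edgeR adjusted p = 0.000225). The other lower genes, named after their values were seen, were the casein kinase subunit CSNK2A2, at -0.29, and the deubiquitinase USP2, at -1.11. Without the library labelled WT replicate 1 the counts were 10 higher and 3 lower, and without R98W replicate 1 or R98W replicate 2 the higher count was 7. SKP1 shares 210 exon bases with TCF7 on the other strand, which fell by 0.92.

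Of 23 chromatin and RNA cofactors of the clock, 4 were higher (17.4%) and 2 lower (8.70%) by edgeR, against 16.2% and 18.5% of all tested genes, with a median log2 fold change of -0.0077. Of the 23, 14 exceeded 64 CPM, a level at which 40.4% of all genes were higher and 9.41% lower. KDM5A, a demethylase that in mice acts with CLOCK and ARNTL, fell to 98.8 ± 5.5 CPM in R98W, against 123 ± 0.73 CPM in WT (log2 fold change -0.31, edgeR adjusted p = 0.00101). KMT2A, a histone methyltransferase that in mice is recruited by CLOCK, fell to 55.7 ± 5.6 CPM in R98W, against 67.7 ± 2.5 CPM in WT (log2 fold change -0.28, edgeR adjusted p = 0.00601). RACK1, a ribosomal scaffold also found with ARNTL, rose by 0.29 on the log2 scale (edgeR adjusted p = 0.000912), but the correction for expression level ended the call, at 0.08 without re-centring (adjusted p = 0.272) and -0.00086 with it. The other higher genes were MTA2, and KAT2B and DDX5, which were named after their values were seen, with log2 fold changes of 0.19, 0.22 and 0.16. MTA2 had 0.07 and DDX5 -0.03 after that correction without re-centring, and -0.02 and -0.12 with it, none past the threshold, and KAT2B lost its call with re-centring (adjusted p = 0.193). Each of the 3 calls was also lost without 5 of the 6 libraries in turn. KMT2A shares 5599 exon bases with AP001267.5 on its own strand, with a mean of 0.0103 CPM in R98W libraries and 0.00686 in WT libraries. The count of higher cofactors was 2 without the library labelled WT replicate 1, without WT replicate 2 or without R98W replicate 3, and 1 without WT replicate 3, R98W replicate 1 or R98W replicate 2. After the correction for expression level 1 was higher and 5 lower without re-centring, and 0 higher and 11 lower with it.

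Genes described as outputs of the clock, or as inputs that reset it, went both ways. Of 20 listed outputs 18 were tested, and 6 were higher (33.3%) and 2 lower (11.1%) by edgeR, against 16.2% and 18.5% of all tested genes, with a median log2 fold change of 0.10. Of the 18, 8 exceeded 64 CPM. NAMPT, the rate-limiting enzyme of NAD salvage, rose to 882 ± 41 CPM in R98W, against 492 ± 67 CPM in WT (log2 fold change 0.84, edgeR adjusted p = 2.62e-07). The phosphatidate phosphatase gene LPIN1 rose by 0.43 on the log2 scale. The lower genes were the cyclin gene CCNE1, at -0.44, and the lipid receptor gene PPARD, at -0.38, the last named after its value was seen. Without the library labelled WT replicate 1, 8 outputs were higher and 2 lower.

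Of 12 listed glucocorticoid-responsive genes 11 were tested, and 2 were higher (18.2%) and 0 lower by edgeR, against 16.2% and 18.5% of all tested genes. The counts were the same at an unadjusted p under 0.05 and by DESeq2 and limma-voom. The higher genes were ANGPTL4, with a log2 fold change of 1.11 (edgeR adjusted p = 2.61e-07), and BIRC3, with 0.58. ANGPTL4 is also a target of the lipid-sensing PPAR receptors and of hypoxia, and BIRC3 of NF-kB. TSC22D3 and DUSP1, which glucocorticoid induces in many cells, had 0.21 and -0.16 and did not pass the test (edgeR adjusted p = 0.118 for each). DUSP1 passed as lower without the library labelled WT replicate 1 (edgeR adjusted p = 0.0288) and without R98W replicate 3, and TSC22D3 passed as higher without WT replicate 2. Corrected for expression level without re-centring, TSC22D3 passed as higher, at 0.29 (edgeR adjusted p = 0.0317), and DUSP1 as lower, at -0.22 (edgeR adjusted p = 0.0445). With re-centring DUSP1 passed as lower, at -0.30 (edgeR adjusted p = 0.0130), and TSC22D3 did not pass (edgeR adjusted p = 0.138). Of 15 cAMP and immediate early genes, 4 were higher (26.7%) and 3 lower (20%) by edgeR, against 16.2% and 18.5% of all tested genes, with a median log2 fold change of 0.08. FOSB rose to 1.03 ± 0.08 CPM in R98W, against 0.471 ± 0.186 CPM in WT, the cAMP-responsive factor ATF1 rose by 0.33, and CREM by 0.27. JUNB fell by 0.53, the coactivator gene CRTC3 by 0.28 and the orphan receptor gene NR4A1 by 0.29. JUNB shares 259 exon bases with HOOK2 on the other strand, at a log2 fold change of -0.52. NR4A2 had 0.27, a call lost without any 1 library except WT replicate 3, with adjusted p up to 0.215 without the library labelled WT replicate 1. CREM, NR4A1 and NR4A2 were named after their values were seen. With the re-centred correction for expression level CREM and NR4A2 lost their calls, at adjusted p of 0.0675 and 0.0525. CREM also lost its call without WT replicate 3, at 0.0575, and NR4A1 without WT replicate 3 or R98W replicate 1, with adjusted p up to 0.0603.

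Among 12055 protein-coding genes outside these lists with a mean of at least 1 CPM, the gene whose log2 CPM over the 6 libraries was most like PER2 was TPCN1, with a Pearson r of 0.999. The closest to PER3 was CSGALNACT2 (r = 0.999), to CRY1 POLG (r = 0.996), to ARNTL TM7SF3 (r = 0.993) and to PER1 C12orf75 (r = 0.990). These likenesses are descriptions over 6 libraries in groups of 3, and many genes come close: 583 genes had r over 0.95 with PER2 and 342 with PER3. For 4 genes that did not pass the test the closest were RB1 for CLOCK, HECTD4 for CRY2, HLTF for NR1D2 and NPY4R2 for BHLHE40, with r from 0.984 for NR1D2 to 0.999 for CRY2.

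**Figure D5:**
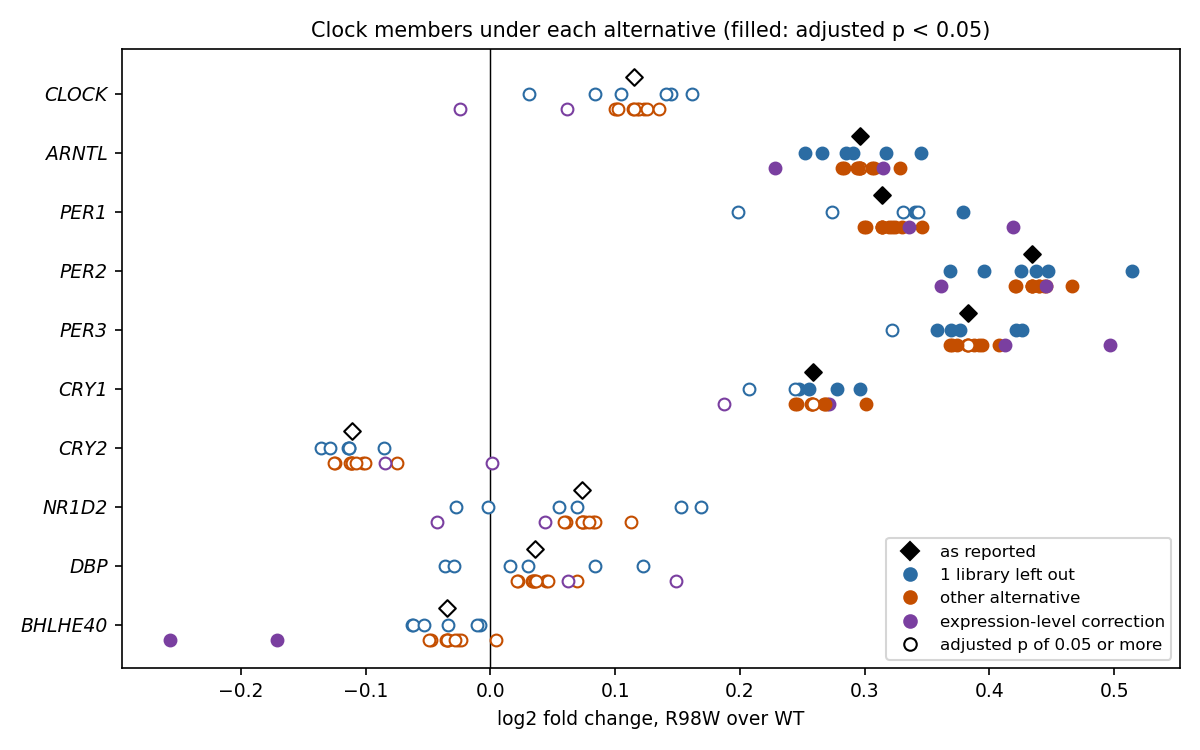
Log2 fold change of R98W over WT for each clock gene as reported (diamonds) and under 18 alternatives (circles, the correction for expression level in purple in both its versions), filled where the adjusted p was under 0.05. All values of ARNTL, PER1, PER2, PER3 and CRY1 lie above 0, from 0.19 to 0.51, and those of the other 5 genes lie on both sides of 0.

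Across these alternatives PER2 was called in 18 of 18, ARNTL in 17, PER3 in 16, CRY1 in 14 and PER1 in 13. BHLHE40 was called, as lower, in 2. CLOCK, CRY2, NR1D2 and DBP were called in 0 of 18, with lowest adjusted p of 0.131, 0.366, 0.201 and 0.385. The test against a fold of 1.2 called PER2 alone, and edgeR adjusted p there was 0.436 for ARNTL, 0.434 for PER1, 0.223 for PER3 and 0.633 for CRY1.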

How the data were processed

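The values the authors deposited are raw counts of reads for each gene in 6 libraries, not normalised. Tools named in the submitters' processing notes are HTSeq 0.11.3, HISAT2 2.1.0 and CASAVA 1.8, with build hg38. Annotation, strand setting and filters are not given, so reads of overlapping genes on opposite strands cannot be told apart. Identifiers were matched to GENCODE release 29. Groups and replicate numbers came from the sample titles. The test used edgeR 4.0.16 (R 4.3.3): filterByExpr (minimum count 10, minimum total 15), TMM scaling, and the quasi-likelihood test of R98W against WT over 6 libraries without covariates, with Benjamini-Hochberg adjustment over 20713 genes at 0.05. Standard errors came from the test statistic. The biological coefficient of variation was 10.0%. CPM use the scaled totals; values per kb divide by the union of exons. Exact tests used scipy 1.17.1. Promoter windows and their sequences are from RefSeq (GRCh38.p14), with an entry for all 10 genes.

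Replicates of a group differed by more than sampling noise. Same-numbered libraries did not deviate together (r of 0.0056, -0.039 and -0.037 over genes), so the numbers were not taken as pairs. Simulated counts for R98W against WT, over 20254 genes, recovered 34% of changes of 1.25-fold, 72% of 1.5-fold, 80% of 2-fold and 92% of 4-fold, with 9 false calls. The changed genes were drawn at random from all tested genes and were far fewer than the genes called in the data. These shares therefore do not give the chance of a call for the clock genes.

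The clock genes, the gene lists and the tests were chosen with earlier results of these data known. Genes named were KAT8, the 10 clock genes, the 4 smallest p in each further list, 5 other loop genes, and the gene most like each clock gene; some of these are not reported here. Alternatives were DESeq2 1.42.0, limma-voom (limma 3.58.1), other scalings and filters, each library left out, a replicate block, a test against a fold of 1.2, and per-library loess corrections for expression level and exon length, each in 2 versions. The plan did not fix the centring of the fitted trends. They were first re-centred to median 0, and the version without re-centring was adopted after those results were seen, so both are given.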

Additional observations from a re-analysis of the deposited data

How the results depend on the processing

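Of the 10 clock genes, PER2 was the only one to pass in all 18 alternatives. The test against a fold of 1.2 called 884 genes higher and 1982 lower, and 1 clock gene: log2 fold changes were as reported for ARNTL (0.30), PER1 (0.31), PER3 (0.38) and CRY1 (0.26), past the threshold no longer. It called 1 other clock factor higher and 1 lower, 0 enzymes higher, 0 cofactors either way, 3 outputs higher and 1 lower, and 1 cAMP gene each way. The correction for expression level was first run with re-centred trends, and the version without re-centring was chosen after its results had been seen, as for exon length. With re-centring it called 1851 genes higher and 4714 lower; 4 clock genes higher and 1 lower; 2 enzymes higher; 0 cofactors higher and 11 lower; 3 outputs higher and 3 lower; 3 glucocorticoid genes lower and 5 cAMP genes lower. CRY1 was at 0.19 (adjusted p = 0.0864), BHLHE40 at -0.26, and CLOCK (-0.024) and NR1D2 (-0.043) turned sign. Without re-centring it called 3037 genes higher and 3578 lower; 5 clock genes higher and 1 lower, BHLHE40 at -0.17; 6 enzymes higher; 1 cofactor higher and 5 lower; 1 glucocorticoid gene lower and 5 cAMP genes lower; and CRY2 turned to 0.0016. The exon-length correction called 3416 genes higher and 3966 lower with re-centring and 3953 and 3579 without, where BHLHE40 turned to 0.0049. Cofactors called higher numbered 1 under upper-quartile scaling, 1 without a filter, 2 with at least 50 counts in 3 libraries and 1 with a replicate block. Replicate numbers did not pair the libraries; with the block 5 clock genes were higher and 0 lower. Leaving out 1 library gave 3 to 5 clock genes higher, 7 to 11 enzymes higher, 1 to 2 cofactors higher and 0 to 1 glucocorticoid genes lower. Log2 fold changes then ran from 0.031 to 0.16 for CLOCK, -0.063 to -0.0081 for BHLHE40, 0.20 to 0.38 for PER1, 0.32 to 0.43 for PER3, 0.21 to 0.30 for CRY1, -0.028 to 0.17 for NR1D2 and -0.036 to 0.12 for DBP, with -0.0017 for NR1D2 without R98W replicate 1 and -0.030 for DBP without R98W replicate 2. The causes were not tested. The lowest count of a clock gene was 551. Of simulated 1.25-fold changes, placed on genes of all tested levels, 34% were called at the observed depth. That share is not the chance of calling such a change in the clock genes, and depth was not varied.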
